A study of Saccharomyces cerevisiae with 22 samples.

Results

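Transcription start sites of budding yeast, Saccharomyces cerevisiae, were compared between a Snf2 point mutant and its wild-type strain after an hour of stress in the endoplasmic reticulum (ER). The comparison comprised every line of the authors' deposited snf2Q928K table with DTT that carries a consensus cluster number, which is all 5195 clusters of start sites in the series, and 5194 of them had a test. The snf2Q928K_DTT group is a W303 strain with SNF2 deleted and the allele snf2-Q928K integrated with a LEU2 marker, and the SNF2_DTT group is the same deletion with wild-type SNF2 integrated with LEU2. Both were grown in YPD, split into 2 flasks, and the flask used here was given 5 mM dithiothreitol (DTT) for 1 h. Each group has 2 libraries, which the labels call biological replicates collected on separate days. The same 2 strains without DTT, snf2Q928K_untreated and SNF2_untreated, showed which differences were also seen without DTT. The 4 libraries are part of a series of 22. With 2 libraries a group, p-values measure only the spread between these samples. TL-seq, the assay, sequences the 5′ ends of capped, polyadenylated RNA, so that each cluster marks where transcripts begin and how many begin there.

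Swi/Snf is a chromatin remodelling complex that slides and evicts nucleosomes with the energy of ATP, and Snf2 is its ATPase subunit. It is best known in yeast for opening the promoters of inducible genes, among them genes for phosphate, iron, mating-type switching and stress. DTT reduces disulphide bonds, and the unfolded proteins that collect in the ER switch on the transcription factor Hac1, the effector of the unfolded protein response. Many yeast genes have more than 1 start site, and a transcript that begins far upstream can run across the nearer promoter and keep it quiet. The series asks how Swi/Snf takes part in this at HNT1, a gene whose upstream start is induced by Hac1.

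Only the authors' comparison tables were used, which hold a mean normalized count, a log2 fold change and a standard error (SE) for each cluster but no value per library. The error given with each log2 fold change is therefore the authors' SE, the spread between replicates and the depth of each library are unknown, and the mean of each group was worked out from the deposited mean and fold change. These group means summed to 8150539 normalized counts over all clusters in snf2Q928K_DTT and 6881492 in SNF2_DTT, and the median SE was 0.39 among the 4226 clusters with a mean of at least 50. A cluster was called changed at a Benjamini-Hochberg adjusted p under 0.05 in the authors' deposited table. Where a group mean was under 0.3, the group was read as having no count, and the change is given as a bound against a floor of 3 normalized counts per library. A level compared between strains here counts RNA ends, so that fewer cells using a promoter and less RNA per cell cannot be told apart.

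Stretches of genome before some of the start clusters that changed most, or that the question turns on, are printed first. They are from the R64 reference of S288C, on the strand of transcription. The first 4 lie before genes of iron uptake, which held 5 of the 15 lowest called clusters, and capitals mark TGCACCC on either strand, the core recognised by the iron regulator Aft1. In ENB1 the bases shown are chrXV:21427-21519 on the minus strand, and the capitals begin 154 and 98 bp before the cluster. In SIT1 they are chrV:27454-27490 on the plus strand, with 1 match. In FIT2 they are chrXV:1059250-1059421 on the plus strand, with 3 matches. In LSO1 they are chrX:448882-448918 on the minus strand, with 1 match. In the last 2 sequences, each of 150 bases, capitals mark CAGCGTG, the element through which Hac1 acts in the unfolded protein response. They precede the upstream start of HNT1 (chrIV:239818-239967, minus strand) and the main start of KAR2 (chrX:381140-381289, plus strand).
ENB1: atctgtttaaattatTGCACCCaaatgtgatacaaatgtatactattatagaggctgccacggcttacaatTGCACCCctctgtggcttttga
SIT1: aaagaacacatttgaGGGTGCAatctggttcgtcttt
FIT2: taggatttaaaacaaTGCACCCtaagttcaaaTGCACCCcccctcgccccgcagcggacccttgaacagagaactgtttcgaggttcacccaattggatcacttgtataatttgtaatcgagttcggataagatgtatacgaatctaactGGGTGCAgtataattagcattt
LSO1: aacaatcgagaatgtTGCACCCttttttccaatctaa
HNT1 upstream start: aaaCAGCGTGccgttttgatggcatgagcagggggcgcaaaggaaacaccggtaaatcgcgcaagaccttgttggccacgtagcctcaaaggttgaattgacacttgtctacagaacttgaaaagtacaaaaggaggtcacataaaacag
KAR2 main start: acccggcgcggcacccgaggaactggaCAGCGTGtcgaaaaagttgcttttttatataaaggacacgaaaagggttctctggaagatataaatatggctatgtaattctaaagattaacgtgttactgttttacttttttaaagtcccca

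With DTT, the mutant differed from the wild type at 754 of 5194 clusters (14.5%), of which 381 were higher (7.34%) and 373 lower (7.18%). Of these, 257 clusters were at least 2-fold higher and 303 at least 2-fold lower, and past 8-fold there were 30 higher and 78 lower. Iron uptake, phosphate and stress genes led the decreases. The start-proximal HNT1 promoter, the serine gene SER3, ribosomal protein genes and much of glycolysis were among the increases. The split between higher and lower depends on the scale. The median log2 fold change of clusters with a mean of at least 50 was 0.01, but the summed count was larger in the mutant, and setting both sums equal lowers every log2 fold change by 0.24. On that scale 230 clusters were higher and 611 lower, so 27.3% of calls were higher against 50.5% on the deposited scale. The glycolytic aldolase gene FBA1 made up 27.2% of the difference between the sums, and without it the shift was 0.19 and the split 263 higher and 523 lower.

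**Figure D1:**
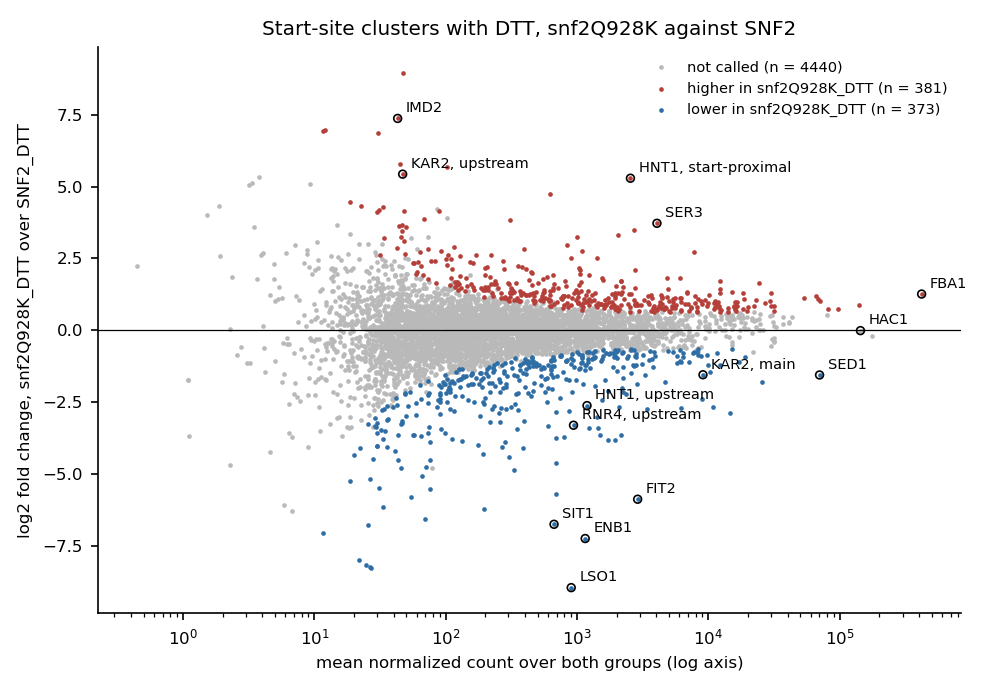
Log2 fold change (snf2Q928K_DTT over SNF2_DTT) of the 5194 tested clusters against their mean normalized count over both groups, on a log axis. Red points are the 381 clusters called higher, blue points the 373 called lower, grey points were not called, and circles mark clusters named in the text, with iron uptake genes at the bottom and the start-proximal HNT1 cluster near the top.

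At HNT1 (YDL125C), which encodes an adenosine monophosphoramidase, the 2 start clusters moved in opposite directions. The start-proximal cluster (chrIV:239563-239608), which spans the coding start, averaged 4965 normalized counts in snf2Q928K_DTT and 127 in SNF2_DTT in the authors' deposited table. Its log2 fold change was 5.29 ± 0.26 at a Benjamini-Hochberg adjusted p of 3.73e-89 in the authors' deposited table. The upstream cluster (chrIV:239755-239817), whose midpoint lies 180 bp before the coding start, averaged 334 normalized counts in snf2Q928K_DTT and 2044 in SNF2_DTT in the authors' deposited table, a log2 fold change of -2.61 ± 0.30 (adjusted p = 1.27e-16). Upstream starts thus made up 6.31% of the counts at both clusters in snf2Q928K_DTT and 94.1% in SNF2_DTT. Without DTT the authors' deposited table put the upstream cluster at a log2 fold change of -2.44 but the start-proximal one at 0.74, not called.

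HNT1 was 1 of 15 genes with start clusters called in opposite directions. Among 648 pairs of neighbouring clusters in 479 genes, 35 had both clusters called. The upstream cluster was lower and the downstream one higher in 9 of these pairs, the reverse held in 5, both were higher in 8 and both lower in 13. Where just 1 of a pair was called, the upstream cluster was higher in 81 pairs and lower in 44, and the downstream one higher in 27 and lower in 38. Of all clusters 14.5% were called.

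**Figure D2:**
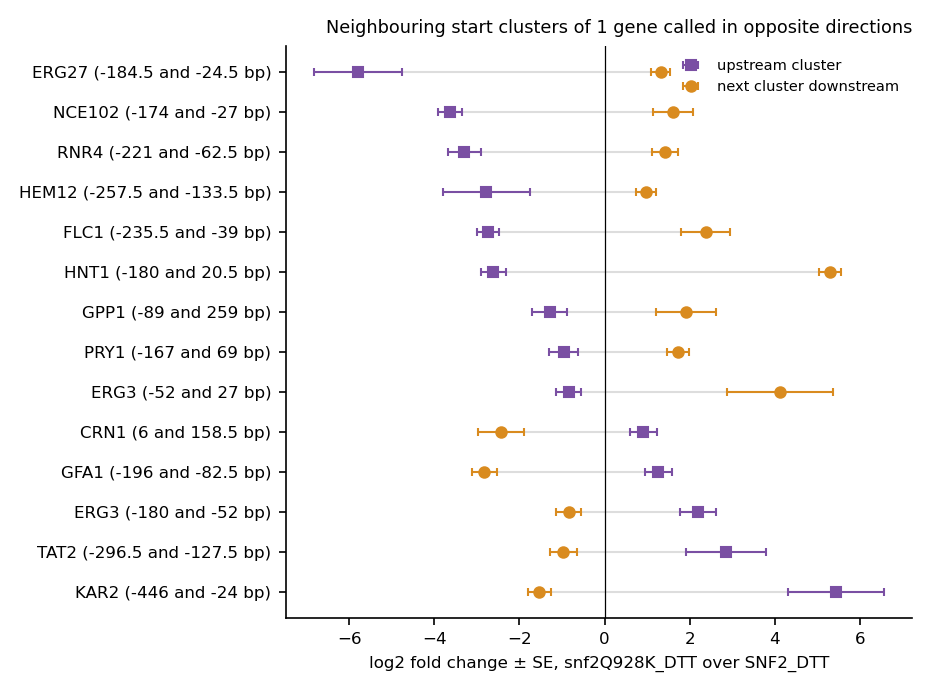
Log2 fold change with its SE (snf2Q928K_DTT over SNF2_DTT) of the 14 pairs of neighbouring start clusters called in opposite directions, squares for the upstream cluster and circles for the next one downstream. Labels give the distance of each midpoint from the coding start, negative before it; the upper 9 pairs have the upstream cluster lower and the lower 5 have it higher.

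The small subunit of ribonucleotide reductase, RNR4, showed the HNT1 pattern. Its upstream cluster, 221 bp before the coding start, averaged 174 normalized counts in snf2Q928K_DTT and 1704 in SNF2_DTT in the authors' deposited table (log2 fold change -3.29 ± 0.39, Benjamini-Hochberg adjusted p = 1.69e-15). Its nearer cluster, at 62.5 bp, averaged 809 normalized counts in snf2Q928K_DTT and 304 in SNF2_DTT (1.41 ± 0.30, adjusted p = 8.47e-05) in the authors' deposited table. NCE102, a protein of the eisosome domains of the plasma membrane, did the same. At 174 bp NCE102 averaged 224 normalized counts in snf2Q928K_DTT and 2785 in SNF2_DTT, and at 27 bp 334 normalized counts in snf2Q928K_DTT and 109.6 in SNF2_DTT, in the authors' deposited table, log2 fold changes of -3.64 ± 0.28 and 1.61 ± 0.48. FLC1, a putative FAD transporter of the ER, fell at its main start 235.5 bp upstream (887 normalized counts in snf2Q928K_DTT and 5938 in SNF2_DTT in the authors' deposited table) and rose at a weaker one 39 bp from the coding start (256 normalized counts in snf2Q928K_DTT and 49.4 in SNF2_DTT). PRY1, a sterol-binding secreted protein, fell 167 bp upstream and rose just inside its coding region, with log2 fold changes of -0.95 ± 0.34 and 1.72 ± 0.26 in the authors' deposited table.

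At ERG27 and HEM12 the upstream start was minor in both strains. For ERG27, a reductase of ergosterol synthesis, the cluster at 184.5 bp averaged 1.93 normalized counts in snf2Q928K_DTT and 107 in SNF2_DTT in the authors' deposited table, a log2 fold change of -5.79 ± 1.03 with a 95% interval of 0.00448 to 0.0727 for the fold, which here and below is snf2Q928K_DTT over SNF2_DTT. The main ERG27 cluster, at 24.5 bp, rose by 1.31 ± 0.22 and averaged 26074 normalized counts in snf2Q928K_DTT and 10497 in SNF2_DTT in the authors' deposited table. HEM12, of haem synthesis, was alike, with -2.77 ± 1.01 at a cluster of 8.36 normalized counts in snf2Q928K_DTT and 57.2 in SNF2_DTT and 0.98 ± 0.23 at the main one in the authors' deposited table. GPP1, a glycerol phosphatase, fell at 89 bp (-1.29 ± 0.42) and rose inside the coding region (1.92 ± 0.71) in the authors' deposited table.

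The reverse order, more upstream and less proximal use, was clearest at GFA1, which makes glucosamine phosphate for chitin and protein glycosylation. GFA1 at 196 bp averaged 3048 normalized counts in snf2Q928K_DTT and 1274 in SNF2_DTT, and at 82.5 bp 169.8 normalized counts in snf2Q928K_DTT and 1205 in SNF2_DTT, in the authors' deposited table, with log2 fold changes of 1.26 ± 0.32 and -2.83 ± 0.29. Upstream starts made up 94.7% of the counts at both in snf2Q928K_DTT and 51.4% in SNF2_DTT. ERG3, a sterol desaturase, fell at its main cluster (5947 normalized counts in snf2Q928K_DTT and 10699 in SNF2_DTT in the authors' deposited table) and rose at weak clusters on either side of it, by 2.20 ± 0.43 upstream and 4.13 ± 1.25 downstream. TAT2, the tryptophan permease, rose by 2.85 ± 0.93 at 296.5 bp and was lower at 127.5 bp (-0.97 ± 0.32) in the authors' deposited table. CRN1, coronin, had its cluster at the coding start higher (0.91 ± 0.32) and one inside the gene lower (-2.43 ± 0.53) in the authors' deposited table. KAR2 is described with the ER genes. ASN1 and VRP1 had opposite calls at clusters that are not neighbours, with ASN1 lower at its main start (-0.97 ± 0.27) and higher 637.5 bp inside its coding region (3.58 ± 1.07) in the authors' deposited table.

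**Figure D3:**
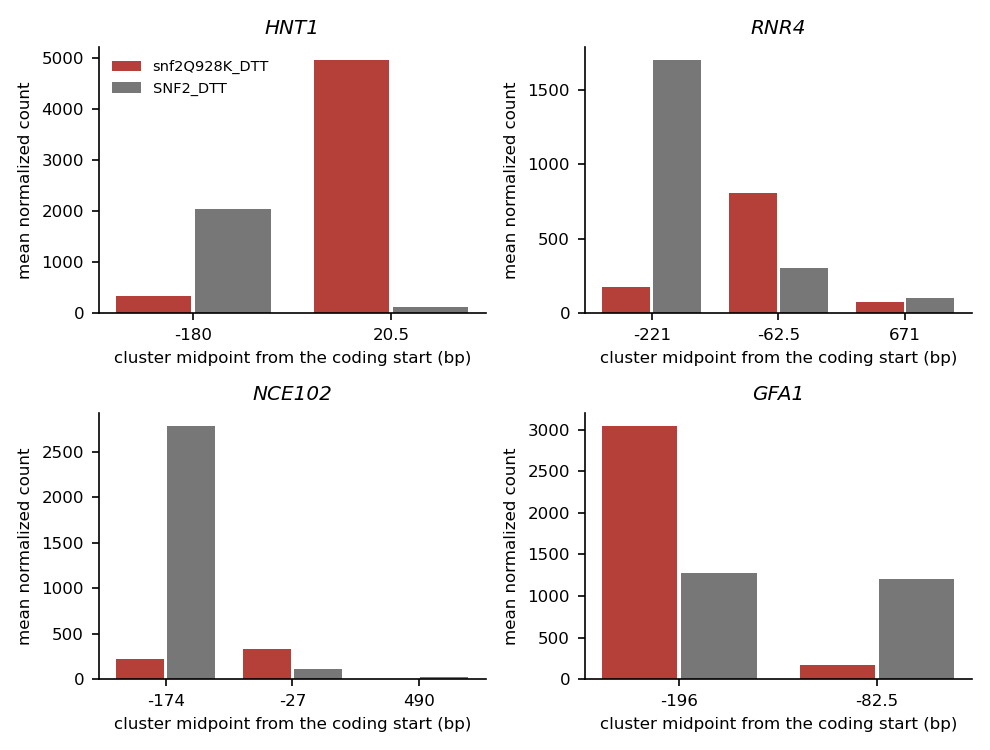
Mean normalized count of each start cluster of HNT1, RNR4, NCE102 and GFA1 in snf2Q928K_DTT (red, left bar of each pair) and SNF2_DTT (grey, right bar), by the distance of its midpoint from the coding start, negative before it. The bars have no error, since no value per library was used; at HNT1, RNR4 and NCE102 the tallest bar stands nearer the coding start in snf2Q928K_DTT than in SNF2_DTT.

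The most used cluster of a gene differed between the strains in 48 genes, and in 4 of these, HNT1, RNR4, NCE102 and PRY1, both clusters were called. At each of these 4 the start used most in snf2Q928K_DTT lay nearer the coding start than the one used most in SNF2_DTT. Over all 48 genes this held for 27, and in 22 of them 1 of the 2 clusters was called. At SNA3 and SNF11 the upstream cluster was lower and the cluster nearest the coding start was not called. At SNF11 the upstream cluster was the most used in SNF2_DTT. SNA3, a vacuolar sorting adaptor, averaged 1.46 normalized counts in snf2Q928K_DTT and 137 in SNF2_DTT at 238.5 bp and 2975 normalized counts in snf2Q928K_DTT and 2145 in SNF2_DTT at 40 bp in the authors' deposited table, with -6.56 ± 1.07 at the first and 0.47 ± 0.24 at the second. SNF11, a Swi/Snf subunit, averaged 6.34 normalized counts in snf2Q928K_DTT and 145 in SNF2_DTT at 276.5 bp (-4.52 ± 0.77) and 199.9 normalized counts in snf2Q928K_DTT and 103 in SNF2_DTT at 84.5 bp (0.95 ± 0.49) in the authors' deposited table.

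Iron uptake genes were lower in the mutant. Of 22 measured genes, each read by its most abundant cluster, 14 were lower and none higher. None of these clusters had a log2 fold change above 0, and the list median was -1.58. Counting a gene by any of its start clusters, 15 were lower and 1 higher. Over all 3872 genes, each read by its most abundant cluster, 14.5% were called (7.62% higher and 6.92% lower) and the median was 0.03. Every list count below is to be read beside these shares, and is of most abundant clusters unless stated otherwise. Several of the iron genes carry siderophores, iron chelates that yeast takes up. ENB1, the enterobactin transporter, averaged 15.2 normalized counts in snf2Q928K_DTT and 2289 in SNF2_DTT at its main cluster in the authors' deposited table, a log2 fold change of -7.23 ± 0.38 at a Benjamini-Hochberg adjusted p of 5.02e-77. Another ENB1 cluster, 138.5 bp upstream, was not called (0.95). It held 78.0% of the gene's counts in snf2Q928K_DTT and 1.20% in SNF2_DTT, so the gene as a whole fell less than its main cluster. SIT1, the ferrioxamine B transporter, averaged 12.4 normalized counts in snf2Q928K_DTT and 1322 in SNF2_DTT (-6.74 ± 0.43, adjusted p = 2.47e-52) in the authors' deposited table, and ARN2, for triacetylfusarinine, 26.5 normalized counts in snf2Q928K_DTT and 1346 in SNF2_DTT (-5.67 ± 0.45). Of the cell wall mannoproteins that retain siderophores, FIT2 averaged 97.5 normalized counts in snf2Q928K_DTT and 5682 in SNF2_DTT (-5.86 ± 0.38) in the authors' deposited table. FIT3 stayed abundant, at 3503 normalized counts in snf2Q928K_DTT and 25776 in SNF2_DTT (-2.88 ± 0.28) in the authors' deposited table. LSO1, a small protein of the iron regulon, had the lowest log2 fold change of all clusters, -8.94 ± 1.50, from 3.67 normalized counts in snf2Q928K_DTT and 1799 in SNF2_DTT in the authors' deposited table.

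Iron genes of other functions were lower as well. HMX1, haem oxygenase, averaged 18.7 normalized counts in snf2Q928K_DTT and 368 in SNF2_DTT (-4.30 ± 0.56) in the authors' deposited table, and TIS11, which marks mRNAs of iron-using proteins for decay, 79.8 normalized counts in snf2Q928K_DTT and 705 in SNF2_DTT (-3.14 ± 0.38). FET3, the multicopper oxidase of reductive uptake, averaged 572 normalized counts in snf2Q928K_DTT and 3607 in SNF2_DTT (-2.66 ± 0.41) in the authors' deposited table, and FET4, the low-affinity transporter, 1238 normalized counts in snf2Q928K_DTT and 4499 in SNF2_DTT (-1.86 ± 0.24). Also called lower in the authors' deposited table were MRS4, the mitochondrial iron carrier (-1.71 ± 0.44), FRE1, a ferric reductase (-1.45 ± 0.32), FTH1, a vacuolar permease (-1.21 ± 0.24), and FET5, its oxidase partner (-0.89 ± 0.26). FTR1, the permease that works with FET3, was at -0.04 ± 0.29 and ISU1, the iron-sulphur scaffold, at -0.02 ± 0.24 in the authors' deposited table, neither called. Without DTT 9 of the genes were lower and 1 higher, with a median of -1.39. In wild-type cells, in the authors' deposited table of DTT against untreated, the list had a median of 1.35. That value is a response to DTT within the wild type, whereas the medians above compare strains. The label names this wild type only as WT, here and below, and the series holds both SNF2 and SWI3 wild-type libraries. If SNF2_DTT libraries are part of it, their error enters this comparison and that between strains with opposite signs. Opposite signs of the 2 medians, here and below, were not tested. In that comparison 1751 of 5186 clusters were called (33.8%), 856 higher with DTT (16.5%) and 895 lower (17.3%).

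Matches to TGCACCC in the 300 bases before the main cluster were found at 13 of the 22 iron genes, 9 of them among the 14 called lower. FRE6, SMF3, ISU1 and ATX1 had a match as well and were not called. Here and below, lists hold genes of a shared function or regulator. A high share with that regulator's motif can follow from the choice of list, and says nothing on the mutation. The same stretch held the motif at 1.62% of all 5195 clusters, 4.56% of clusters called lower and 2.62% of those called higher. ARN2 and HMX1, both lower, had no match. CAGCGTG was found before 1.92% of all clusters, 2.89% of those called higher and 1.61% of those called lower. Of 22 ER folding genes only 2 had it before the main cluster, KAR2 and LHS1, which were among the 7 called lower. ULI1, EUG1, ERV2, SIL1 and YET1, also called lower, had no match. AGGGG, bound by the stress factors Msn2 and Msn4, was found before 21.9% of all clusters, 34.0% of those called lower and 22.8% of those called higher. Both strands were searched in each case, no motif contains another, and a match was read as letters in the window.

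Genes of the general stress response, most of them targets of Msn2 and Msn4 that protect proteins, membranes and energy stores, were lower as well. Of 15 measured, 11 were lower and 1 higher, with a median log2 fold change of -2.15, and 14 of the 15 had AGGGG before the main cluster. TFS1, an inhibitor of a vacuolar protease, averaged 819 normalized counts in snf2Q928K_DTT and 3634 in SNF2_DTT (-2.15 ± 0.29) in the authors' deposited table. TMA10, a ribosome-associated protein, averaged 109.6 normalized counts in snf2Q928K_DTT and 1093 in SNF2_DTT (-3.32 ± 0.33) in the authors' deposited table, and PNC1, nicotinamidase, 245 normalized counts in snf2Q928K_DTT and 1238 in SNF2_DTT (-2.34 ± 0.35). GAD1, glutamate decarboxylase, averaged 17.5 normalized counts in snf2Q928K_DTT and 249 in SNF2_DTT (-3.83 ± 0.65) in the authors' deposited table. HSP12, a membrane stress protein, averaged 4.64 normalized counts in snf2Q928K_DTT and 55.1 in SNF2_DTT (-3.57 ± 1.09) in the authors' deposited table. The chaperone HSP26 averaged 0.474 normalized counts in snf2Q928K_DTT and 51.0 in SNF2_DTT in the authors' deposited table, and the 95% interval of its fold was 0.000852 to 0.102. OM14, of the mitochondrial outer membrane, was the member called higher (1.11 ± 0.30 in the authors' deposited table). Without DTT 2 members were lower and 1 higher, with a median of -0.11.

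Among heat shock chaperones 6 of 21 were lower and none higher (median -0.22). They were SSA1, a cytosolic Hsp70, with 2972 normalized counts in snf2Q928K_DTT and 18817 in SNF2_DTT (-2.66 ± 0.23) in the authors' deposited table, HSP78, the mitochondrial disaggregase, with 319 normalized counts in snf2Q928K_DTT and 2536 in SNF2_DTT (-2.99 ± 0.26), and the Hsp90 machinery and HSP104. Of that machinery the authors' deposited table gave AHA1 at -1.28 ± 0.34, HSP82 at -1.21 ± 0.31 and CPR6 at -1.19 ± 0.24, and HSP104 at -1.27 ± 0.29. All 6 were at or below a log2 fold change of -1 on the deposited scale. Without DTT 4 of the chaperones were lower and 0 higher, with a list median of -0.67. In the thiol redox list 6 of 25 were lower, or 10 when the log2 fold changes were shifted so that both groups had equal sums of normalized counts, with thioredoxin TRX2 at 10728 normalized counts in snf2Q928K_DTT and 23139.6 in SNF2_DTT (-1.11 ± 0.22), the peroxiredoxin TSA2 at 109 normalized counts in snf2Q928K_DTT and 433 in SNF2_DTT (-1.99 ± 0.38) and the peroxidase GPX2 at 59.7 normalized counts in snf2Q928K_DTT and 392 in SNF2_DTT (-2.71 ± 0.41) in the authors' deposited table. CCP1, cytochrome c peroxidase, was the 1 member higher, averaging 2393 normalized counts in snf2Q928K_DTT and 420.3 in SNF2_DTT (2.51 ± 0.36) in the authors' deposited table. STF2, a small protein tied to desiccation tolerance and the ATP synthase, was among the most abundant clusters that fell, averaging 11526 normalized counts in snf2Q928K_DTT and 39656 in SNF2_DTT (-1.78 ± 0.22) in the authors' deposited table. Carbohydrate stores followed in PGM2, phosphoglucomutase (-3.41 ± 0.80 in the authors' deposited table), and TSL1, of trehalose synthase (-1.60 ± 0.38), the 2 members lower of 10, and 4 with equal sums.

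The phosphate response held some of the strongest decreases, with 6 of 15 members lower and 1 higher (median -0.79). PHO84, the high-affinity phosphate transporter, averaged 96.7 normalized counts in snf2Q928K_DTT and 1291 in SNF2_DTT (-3.74 ± 0.34, Benjamini-Hochberg adjusted p = 1.45e-25) in the authors' deposited table. SPL2, a regulator of low-affinity uptake, averaged 5.19 normalized counts in snf2Q928K_DTT and 387 in SNF2_DTT (-6.22 ± 0.63) in the authors' deposited table, read from a cluster within its coding sequence. VTC3 and VTC4, subunits of the polyphosphate polymerase of the vacuole, were lower, VTC3 averaging 1663 normalized counts in snf2Q928K_DTT and 10733 in SNF2_DTT (-2.69 ± 0.23) and VTC4 42.9 normalized counts in snf2Q928K_DTT and 168 in SNF2_DTT (-1.97 ± 0.54) in the authors' deposited table. VTC1, another subunit, was higher (0.74 ± 0.25 in the authors' deposited table), and with equal sums 0 members were. The acid phosphatase PHO5, a classic Swi/Snf-dependent gene, was near the floor in both strains with DTT, at 3.14 normalized counts in snf2Q928K_DTT and 11.1 in SNF2_DTT in the authors' deposited table, and was not called. CACGTG, the core bound by Pho4, lay within 300 bases before 10 of the 15 members and before 5.08% of all clusters. Without DTT 7 members were lower and 1 higher. In the authors' deposited table of wild-type DTT over untreated the list had a median of -0.42.

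Genes known from earlier work to depend on Swi/Snf, for activation or for repression, did not move as 1 group. Of 11 measured, 4 were lower, PHO84 of the phosphate list among them, and 3 higher. HO, the mating-type endonuclease, averaged 3.24 normalized counts in snf2Q928K_DTT and 148 in SNF2_DTT (-5.52 ± 0.89) in the authors' deposited table. INO1, inositol phosphate synthase, averaged 284 normalized counts in snf2Q928K_DTT and 611 in SNF2_DTT (-1.11 ± 0.34) in the authors' deposited table, read from a cluster within its coding sequence. SUC2, invertase, was at 361 normalized counts in snf2Q928K_DTT and 414 in SNF2_DTT in the authors' deposited table and not called. SER3, phosphoglycerate dehydrogenase, is repressed by transcription of the neighbouring SRG1 that Swi/Snf is known to promote, and it averaged 7534 normalized counts in snf2Q928K_DTT and 571 in SNF2_DTT in the authors' deposited table, a log2 fold change of 3.72 ± 0.28 at a Benjamini-Hochberg adjusted p of 2.55e-38. ARG1, argininosuccinate synthase, was higher too, at 159 normalized counts in snf2Q928K_DTT and 23.5 in SNF2_DTT (2.76 ± 0.66) in the authors' deposited table. Among 8 genes known for interference by upstream or antisense transcription, 5 were higher, HNT1, SER3, IMD2, ADH1 and ADH3, and PHO84 was lower. IMD2, inosine monophosphate dehydrogenase, whose start choice responds to GTP, averaged 85.5 normalized counts in snf2Q928K_DTT and 0.518 in SNF2_DTT in the authors' deposited table, with a 95% interval of 18.0 to 1515 for the fold; it has close paralogs, and how reads shared between copies were counted is not given in the sources used here. The SRG1 start was not analysed here.

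Part of the ER folding genes were lower, and HAC1 was not called. Of 22 measured 7 were lower and none higher, with a median of -0.30. KAR2, the Hsp70 of the ER, averaged 4649 normalized counts in snf2Q928K_DTT and 13516 in SNF2_DTT at its main start in the authors' deposited table, a log2 fold change of -1.54 ± 0.27 at a Benjamini-Hochberg adjusted p of 5.05e-07. ULI1, a gene strongly induced by ER stress, averaged 2853 normalized counts in snf2Q928K_DTT and 14901 in SNF2_DTT (-2.38 ± 0.24) in the authors' deposited table. The other members called were LHS1 (-1.08 ± 0.36) and SIL1 (-0.99 ± 0.24), both nucleotide exchange factors of KAR2, EUG1, a disulphide isomerase (-0.80 ± 0.24), ERV2, a thiol oxidase (-1.21 ± 0.26), and YET1 (-0.76 ± 0.23) in the authors' deposited table. PDI1, the main disulphide isomerase, averaged 6139.6 normalized counts in snf2Q928K_DTT and 6692 in SNF2_DTT and ERO1, its oxidase, 2823 normalized counts in snf2Q928K_DTT and 3045 in SNF2_DTT in the authors' deposited table, neither called. HAC1 at its main cluster, which is shared with YFL032W, averaged 143202 normalized counts in snf2Q928K_DTT and 143856 in SNF2_DTT (-0.01 ± 0.23) in the authors' deposited table. For DTT over untreated in wild-type cells the list had a median of 1.11 in the authors' deposited table, and KAR2 stood at 3.12. Between the strains without DTT the list median was -0.45, with 1 member lower and 0 higher. The effect of the mutation had a called difference between DTT and no DTT at 0 members, each read by its main cluster.

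KAR2 also gained a start. A cluster 446 bp upstream of its coding start averaged 91.8 normalized counts in snf2Q928K_DTT and 2.13 in SNF2_DTT in the authors' deposited table, with a 95% interval of 9.41 to 198 for the fold (Benjamini-Hochberg adjusted p = 3.59e-05). It made up 1.94% of the counts at it and the main start together in snf2Q928K_DTT and 0.0157% in SNF2_DTT. A cluster 1397 bp inside the KAR2 coding region was lower too (-1.88 ± 0.48 in the authors' deposited table).

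Further along the secretory pathway few genes changed. None of 16 genes of ER-associated degradation was called by the authors' DESeq2 test, 2 had an unadjusted p under 0.05 and 3 were called lower with equal sums, and their log2 fold changes in the authors' deposited table ran between -1.18 for MNS1 and 0.74 for HRD3. Of 39 genes of translocation and glycosylation SBH1, a subunit of the translocation channel, was lower (-0.80 ± 0.26) and SEC61, its core, higher (0.67 ± 0.23) in the authors' deposited table, with 2 lower and 0 higher with equal sums. Of 27 vesicle coat genes 3 were lower. SEC24, cargo adaptor of the COPII coat, averaged 492 normalized counts in snf2Q928K_DTT and 2598 in SNF2_DTT (-2.40 ± 0.33) in the authors' deposited table, and SAR1, its GTPase, and SEC26, of the COPI coat, were at -0.90 ± 0.25 and -0.79 ± 0.23. Phospholipid genes fell in 5 of 16 cases, among them the methyltransferases of phosphatidylcholine synthesis CHO2 (-2.02 ± 0.55) and OPI3 (-1.04 ± 0.27) in the authors' deposited table. INO4, one of the activators of this pathway, was higher (1.18 ± 0.44 in the authors' deposited table), and no member was with equal sums.

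Ribosomal protein genes were higher at 72 of 131 and lower at none, with a median log2 fold change of 0.72 and 128 of 131 above 0. With equal sums of both groups 39 were called higher. Counting a gene by any of its start clusters, on the deposited scale, 73 were higher and 2 lower. RPS31, a ubiquitin fusion of the small subunit, averaged 7506 normalized counts in snf2Q928K_DTT and 2099 in SNF2_DTT (1.84 ± 0.23) in the authors' deposited table, RPS10B 4092 normalized counts in snf2Q928K_DTT and 1471 in SNF2_DTT (1.48 ± 0.25) and RPL39 7192 normalized counts in snf2Q928K_DTT and 2683 in SNF2_DTT (1.42 ± 0.23). The most abundant were RPS6A, at 120491 normalized counts in snf2Q928K_DTT and 72441 in SNF2_DTT (0.73 ± 0.26), and RPL30, at 102048 normalized counts in snf2Q928K_DTT and 60807 in SNF2_DTT (0.75 ± 0.24), in the authors' deposited table. Many ribosomal protein genes have near-identical copies, histone genes, SSA1, HSP82, TDH2, TDH3, ENO1 and HXT3 have close paralogs, and how shared reads were counted is not given in the sources used here. Ribosome biogenesis factors had 11 of 41 higher and none lower (median 0.71), led by the nucleolar NSR1 (1.51 ± 0.31) and the helicase DBP2 (1.42 ± 0.31) in the authors' deposited table, and 4 with equal sums. HYP2, the translation factor eIF5A, averaged 93242 normalized counts in snf2Q928K_DTT and 44060.0 in SNF2_DTT (1.08 ± 0.24) in the authors' deposited table. In the wild type ribosomal protein genes had a median of -1.65 for DTT over untreated in the authors' deposited table, and without DTT 1 was called between the strains.

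Histone genes, with a median of -1.57 for DTT over untreated in the wild type in the authors' deposited table, were higher in the mutant at 5 of 10. HHT1 averaged 1078 normalized counts in snf2Q928K_DTT and 471 in SNF2_DTT (1.20 ± 0.31), HHF1 1535 normalized counts in snf2Q928K_DTT and 726 in SNF2_DTT (1.08 ± 0.27) and HTB2 5998 normalized counts in snf2Q928K_DTT and 3404 in SNF2_DTT (0.82 ± 0.24) in the authors' deposited table, while HTB1, at 1941 normalized counts in snf2Q928K_DTT and 1971 in SNF2_DTT, was not called. With equal sums 2 of them passed. The respiratory chain had 5 of 37 higher and none lower (median 0.55), among them QCR6 (1.24 ± 0.34) and QCR7 (1.03 ± 0.30) of the cytochrome bc1 complex in the authors' deposited table, and 2 higher and 1 lower with equal sums. ODC2, a mitochondrial carrier of oxodicarboxylates, rose strongly, averaging 3716 normalized counts in snf2Q928K_DTT and 376 in SNF2_DTT (3.31 ± 0.26) in the authors' deposited table.

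Glycolysis and fermentation genes changed both ways, 10 higher and 5 lower of 24 (median 0.71). FBA1, aldolase, had the highest count of all clusters, 592273 normalized counts in snf2Q928K_DTT and 246584 in SNF2_DTT (1.26 ± 0.24) in the authors' deposited table. ENO1, enolase, averaged 18680.1 normalized counts in snf2Q928K_DTT and 5623 in SNF2_DTT (1.73 ± 0.25), TDH2, of glyceraldehyde phosphate dehydrogenase, 36822 normalized counts in snf2Q928K_DTT and 11874 in SNF2_DTT (1.63 ± 0.22), and GPD2, which makes glycerol phosphate, 9489 normalized counts in snf2Q928K_DTT and 2716 in SNF2_DTT (1.80 ± 0.25) in the authors' deposited table. ADH1, the fermentative alcohol dehydrogenase, averaged 181628 normalized counts in snf2Q928K_DTT and 99536 in SNF2_DTT (0.87 ± 0.23) in the authors' deposited table. On the lower side were hexose kinases and stress forms of the enzymes: HXK1 at 59.6 normalized counts in snf2Q928K_DTT and 644 in SNF2_DTT (-3.43 ± 0.39), GLK1 at -0.78 ± 0.25, GPD1 at -1.25 ± 0.32 and PYK2 at -0.95 ± 0.28 in the authors' deposited table. TDH3 was read from a cluster within its coding sequence, and it was lower too (-1.56 ± 0.31 in the authors' deposited table). With equal sums 8 were higher and 6 lower. Of the hexose transporters, HXT2 averaged 3295 normalized counts in snf2Q928K_DTT and 1006 in SNF2_DTT (1.71 ± 0.26) and HXT3 1669 normalized counts in snf2Q928K_DTT and 433 in SNF2_DTT (1.95 ± 0.29) in the authors' deposited table, and both were higher.

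More genes that make amino acids were higher than lower, and more of their permeases were lower than higher. Of 23 sulphur amino acid genes 7 were higher and none lower (median 0.81), and 6 with equal sums. MET6, methionine synthase, averaged 1537 normalized counts in snf2Q928K_DTT and 269.6 in SNF2_DTT (2.51 ± 0.28), MET13, which supplies its methyl donor, 205 normalized counts in snf2Q928K_DTT and 27.2 in SNF2_DTT (2.91 ± 0.57), and MET17, of sulphide incorporation, 42676 normalized counts in snf2Q928K_DTT and 17212 in SNF2_DTT (1.31 ± 0.25) in the authors' deposited table. The permeases MMP1 (2.19 ± 0.40) and SAM3 (1.64 ± 0.39), for S-methylmethionine and S-adenosylmethionine, rose with them in the authors' deposited table. Of 9 arginine genes the synthetic ARG1, ARG4 (1.33 ± 0.24), ARG7 (1.77 ± 0.37) and CPA1 (2.10 ± 0.31, a cluster shared with YOR302W) were higher, and the catabolic CAR2 was lower (113 normalized counts in snf2Q928K_DTT and 1472 in SNF2_DTT, -3.71 ± 0.38), in the authors' deposited table. TGACTC, the core bound by the amino acid regulator Gcn4, lay before 7 of these 9 genes and 9.24% of all clusters. Of 45 other synthetic genes 8 were higher, such as ILV3 (1.67 ± 0.27) and ILV2 (1.49 ± 0.31) of the branched chain, and 4 lower, with the transaminase BAT2 at 318 normalized counts in snf2Q928K_DTT and 3975 in SNF2_DTT (-3.64 ± 0.26), in the authors' deposited table. Of 17 permeases 5 were lower, including the peptide transporter PTR2 with 30.5 normalized counts in snf2Q928K_DTT and 509.8 in SNF2_DTT (-4.06 ± 0.42) and BAP2 with 215 normalized counts in snf2Q928K_DTT and 1509 in SNF2_DTT (-2.81 ± 0.30) in the authors' deposited table, and MEP3, an ammonium permease, was higher (1.94 ± 0.31).

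**Figure D4:**
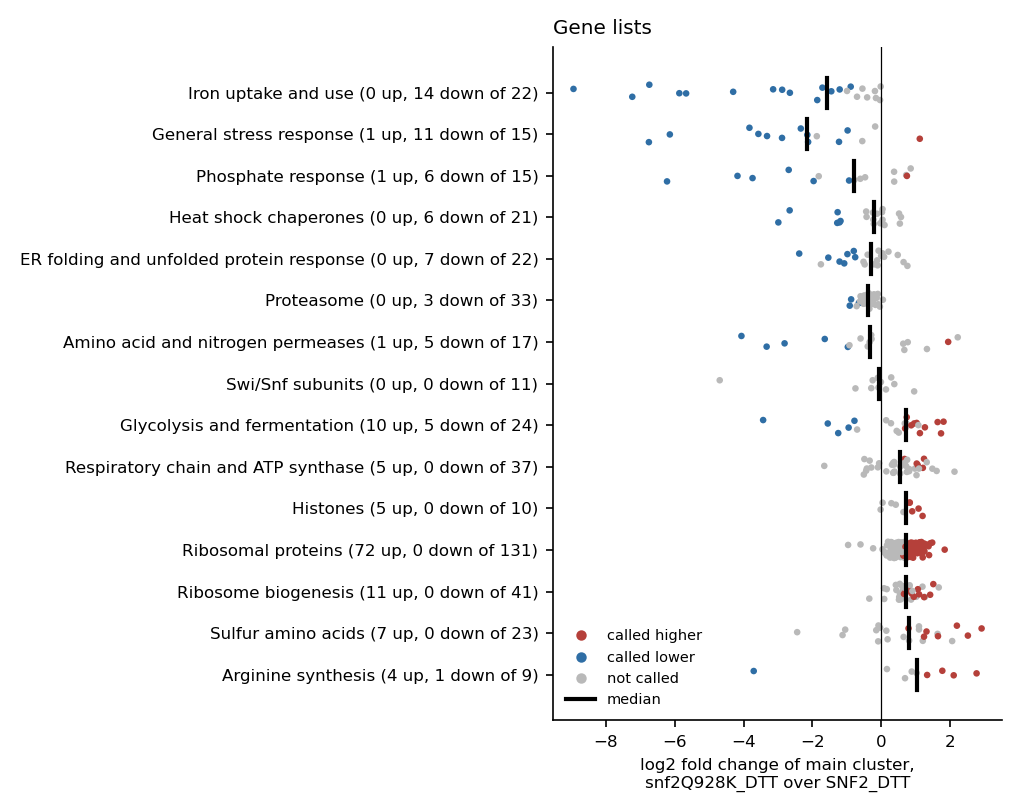
Log2 fold change (snf2Q928K_DTT over SNF2_DTT) of the main start cluster of each gene in 15 of the 42 lists; each point is a gene, red where called higher, blue where called lower and grey where not called, and the black bar is the list median. Iron, stress and phosphate genes spread far to the left, while ribosomal protein and ribosome biogenesis genes sit close together to the right of 0.

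Cell wall genes went both ways, 9 higher and 9 lower of 39. SED1, the main wall protein of stationary cells, averaged 35723 normalized counts in snf2Q928K_DTT and 104433 in SNF2_DTT (-1.55 ± 0.30) in the authors' deposited table at a cluster within its coding sequence. SIM1, of the SUN family, averaged 259 normalized counts in snf2Q928K_DTT and 3652 in SNF2_DTT (-3.82 ± 0.30) in the authors' deposited table. UTH1, a relative of SIM1, was higher, at 91201 normalized counts in snf2Q928K_DTT and 39862 in SNF2_DTT (1.19 ± 0.26) in the authors' deposited table, as were the glucan synthase FKS1 (1.21 ± 0.33) and ECM33 (1.12 ± 0.28). With equal sums 5 were higher and 10 lower. Ergosterol synthesis had 3 higher and 2 lower of 25, with ERG1, squalene epoxidase, at 3572 normalized counts in snf2Q928K_DTT and 7915 in SNF2_DTT (-1.15 ± 0.25) in the authors' deposited table, and 4 lower with equal sums. The proteasome had 3 of 33 lower, PRE9 (-0.92 ± 0.25), PRE6 (-0.88 ± 0.26) and PRE5 (-0.65 ± 0.23) in the authors' deposited table, and 14 with equal sums. Translation factors had 3 of 28 higher and none lower, purine genes 3 of 15 higher and none lower, serine and one-carbon genes 3 of 14 higher and 1 lower, and the tricarboxylic acid cycle 2 of 18 higher and 1 lower. Over all 3872 genes 7.62% were called higher and 6.92% lower. The proteasome and translation factor counts lie near these shares, and no list was tested against them. With equal sums the list counts became 1 higher for translation factors and 2 higher and 3 lower for purine genes, and 1 higher and 2 lower for the tricarboxylic acid cycle. The zinc transporters ZRT1 (270.4 normalized counts in snf2Q928K_DTT and 52.8 in SNF2_DTT, 2.36 ± 0.51) and ZRT2 (1.47 ± 0.50) were higher in the authors' deposited table, ZRT1 alone with equal sums.

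The strains and their state were read from marker genes. The mutant allele cannot be told from wild-type SNF2 by its start site, which averaged 54.3 normalized counts in snf2Q928K_DTT and 91.5 in SNF2_DTT (-0.75 ± 0.70) in the authors' deposited table and was not called. None of 11 Swi/Snf subunits and none of 17 genes of other remodellers was called at the main cluster by the authors' DESeq2 test, and 0 of the subunits and 0 of the remodeller genes had an unadjusted p under 0.05. Of MATa-specific genes 6 of 7 were measured and of MATalpha-specific genes none of 4. Only 2 of the 6 were called, both lower, the list median was -0.35 and 2 members were above 0. The called members were MFA1, the a-factor gene, which averaged 888 normalized counts in snf2Q928K_DTT and 3531 in SNF2_DTT (-1.99 ± 0.24), and BAR1, a pheromone protease, with 1507 normalized counts in snf2Q928K_DTT and 2496 in SNF2_DTT (-0.73 ± 0.26), in the authors' deposited table. Of 8 meiotic genes SPS4 alone was measured, by a cluster inside its coding region that was not called. Among genes of daughter cells and early G1 3 of 17 were lower, HO, PST1 (-1.92 ± 0.28) and DSE1 (-1.20 ± 0.35), in the authors' deposited table, and 5 with equal sums. Whether cell cycle position played a part in any result was not tested.

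Clusters outside gene promoters also changed. Of 709 intergenic clusters 61 were higher and 51 lower (15.8%), of 754 inside coding regions 48 were higher and 54 lower (13.5%), and of 3566 upstream of a coding start 252 were higher and 256 lower (14.2%). Within 20 kb of a chromosome end 10 of 70 were higher and 12 lower (31.4%), against 14.3% elsewhere. Abundant clusters were called more often, 41.7% of those with a mean of 5000 or more against 6.82% of those under 50. The strongest abundant intergenic change was cluster 1756 (chrIV:539558-539576, minus strand), which lies between ENA1 and RSM10 and averaged 1193 normalized counts in snf2Q928K_DTT and 44.4 in SNF2_DTT (4.75 ± 0.34, Benjamini-Hochberg adjusted p = 4.65e-41) in the authors' deposited table. Cluster 976, on the strand opposite ADH7 within that gene, averaged 199 normalized counts in snf2Q928K_DTT and 3.85 in SNF2_DTT (5.69 ± 1.90), and cluster 1614, between VCX1 and PCL2, 88.2 normalized counts in snf2Q928K_DTT and 1.59 in SNF2_DTT (95% interval 11.4 to 272 for the fold), in the authors' deposited table. Cluster 2255, opposite MET6 within that gene, averaged 35.5 normalized counts in snf2Q928K_DTT and 1.62 in SNF2_DTT in the authors' deposited table, with an interval of 2.81 to 172. From the authors' deposited table the bounds were at least 31.3-fold higher for YPL025C, which is outside the reference used, at least 7.91-fold for a cluster shared by YDR154C and CPR1, and at least 7.65-fold for cluster 1228, between ALT2 and PDS1.

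The remaining clusters at either end were in part inside coding regions. Higher were OLE1, the fatty acid desaturase, 330.5 bp inside its coding region (4.28 ± 1.21), the transcription regulators SPT10 (4.17 ± 1.21) and YAP5 (4.17 ± 0.90), also inside, and AAC1, an ADP/ATP carrier, at its promoter (43.0 normalized counts in snf2Q928K_DTT and 2.16 in SNF2_DTT), in the authors' deposited table. YMR194C-A, outside the reference used, averaged 60.3 normalized counts in snf2Q928K_DTT and 0.519 in SNF2_DTT in the authors' deposited table, with an interval of 11.3 to 1199 for the fold. Lower by the bound were IVY1, a phospholipid-binding protein, at least 17.8-fold, VRP1, the yeast verprolin, 17.5-fold, YNL190W 16.4-fold, KTR2, a mannosyltransferase, 14.5-fold, and AHA1 7.66-fold, all but IVY1 at clusters inside the coding region, in the authors' deposited table. A YNL190W cluster 244.5 bp upstream averaged 26900 normalized counts in snf2Q928K_DTT and 17170 in SNF2_DTT (0.65 ± 0.25) and was not called. The VRP1 promoter cluster was not called either (-0.48 ± 0.42), and another cluster inside VRP1 was higher (2.38 ± 0.81), in the authors' deposited table. SPI1, a wall protein of stationary cells, averaged 0.935 normalized counts in snf2Q928K_DTT and 65.9 in SNF2_DTT in the authors' deposited table, an interval of 0.00216 to 0.0930 for the fold. In NTE1, a phospholipase, a weak cluster just inside the coding region averaged 1.39 normalized counts in snf2Q928K_DTT and 61.1 in SNF2_DTT, while its promoter cluster, at 186 normalized counts in snf2Q928K_DTT and 201 in SNF2_DTT, was not called in the authors' deposited table. TPO1, a polyamine exporter, averaged 3.50 normalized counts in snf2Q928K_DTT and 56.2 in SNF2_DTT (-4.00 ± 1.22) at its promoter cluster in the authors' deposited table.

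Without DTT fewer clusters were called between the same strains, 340 of 5185 (6.56%), of which 146 were higher (2.82%) and 194 lower (3.74%). A number of calls depends on the SEs as well as on the size of the effects. The SE was 0.46 without DTT and 0.23 with it at SSA1, and 0.28 and 0.31 at HHT1. SEs were not compared over all clusters, so whether the mutation changed fewer clusters without DTT was not tested. Of the calls with DTT, 166 were also called in the same direction without it, 22.0% of the calls with DTT and 48.8% of those without, and 4 were called in opposite directions. The 166 comprised 64 higher and 102 lower clusters. Across 3694 clusters with a mean of at least 50 in both tables, which share gene-to-gene differences in level but no library, Pearson's r between the log2 fold changes was 0.57. Among those called in the same direction in both were ENB1 (-6.03 without DTT in the authors' deposited table), SIT1 (-4.68), PHO84 (-2.17), VTC3 (-3.93), RNR4 at its upstream start (-4.11), SIM1 (-3.94) and SER3 (5.89). SER3 averaged 12104 normalized counts in snf2Q928K_untreated and 204 in SNF2_untreated in the authors' deposited table without DTT. HO had no count in snf2Q928K_untreated and averaged 739 in SNF2_untreated in the authors' deposited table, at least 246-fold lower.

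The effect of the mutation itself differed between DTT and no DTT at 73 of 5185 clusters (1.41%), by a two-sided normal test of the difference of the 2 log2 fold changes with Benjamini-Hochberg adjustment. It was higher with DTT at 40 (0.771%) and lower at 33 (0.636%). Of the 73, 39 were called with DTT alone, 17 without DTT alone and 14 in both. The start-proximal HNT1 cluster had the smallest adjusted p, 7.47e-29, with a difference of 4.55. Iron's FIT2 fell further with DTT (difference -3.47, adjusted p = 4.51e-07), as did the upstream cluster of NCE102 (-2.00, adjusted p = 0.00149). STF2 was lower with DTT and not called without it (0.19 in the authors' deposited table), a difference of -1.97 (adjusted p = 0.000292). SER3 was higher in both but less so with DTT (-2.17, adjusted p = 4.17e-05). ZRT1 was higher with DTT and lower without it, averaging 3.90 normalized counts in snf2Q928K_untreated and 47.9 in SNF2_untreated in the authors' deposited table, a difference of 5.97. ANB1, the hypoxic form of eIF5A, did likewise, at 161 normalized counts in snf2Q928K_DTT and 53.6 in SNF2_DTT with DTT and 2.47 normalized counts in snf2Q928K_untreated and 44.7 in SNF2_untreated without it in the authors' deposited table.

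**Figure D5:**
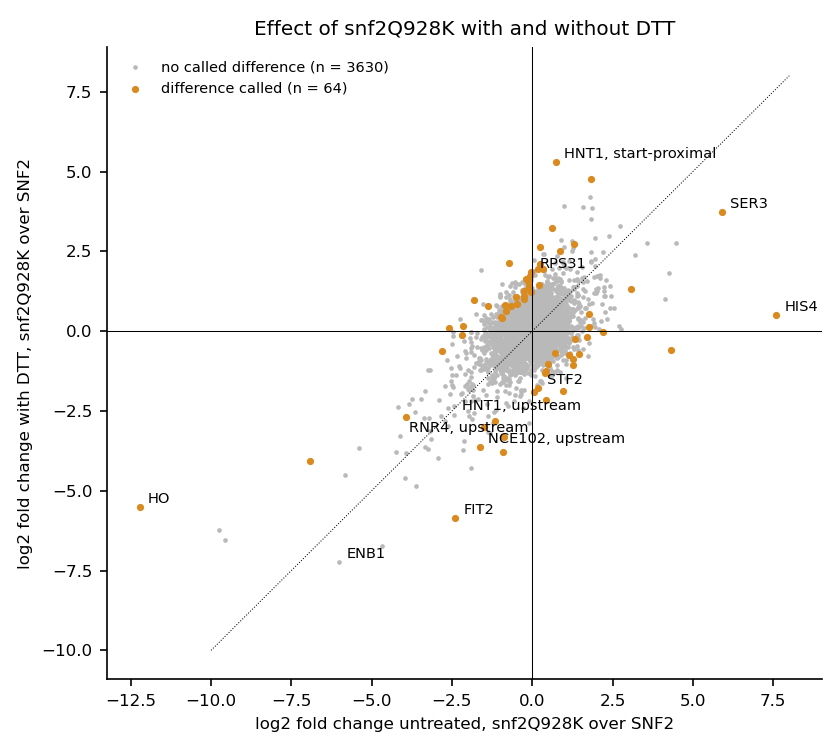
Log2 fold change of snf2Q928K over SNF2 with DTT (vertical) against that without DTT (horizontal) for clusters with a mean of at least 50 in both tables; orange points have a called difference between the treatments, and the dotted line marks equal effects. The start-proximal HNT1 cluster stands far above the line and FIT2 far below it, while the upstream HNT1 and RNR4 clusters lie near it.

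The snf2W935R strain, another Snf2 point mutant, was compared by the authors with the same SNF2_DTT libraries, so its values share their error with those above and are set side by side without a test. In the authors' deposited snf2W935R table with DTT 279 clusters were called (5.37%), 132 higher (2.54%) and 147 lower (2.83%). Here too the number of calls depends on the SEs. At the start-proximal HNT1 cluster the SE was 0.40 for snf2W935R and 0.26 for snf2Q928K, and at ARN2 0.44 and 0.45. Iron genes were low there too, with ENB1 at -4.21, SIT1 at -4.02, FIT2 at -5.48 and ARN2 at -5.66 in the authors' deposited table, against -7.23, -6.74, -5.86 and -5.67 for snf2Q928K. The start-proximal HNT1 cluster was at 4.33 and the upstream one at -0.63 in the authors' deposited table, against 5.29 and -2.61. RNR4 at its upstream start was at -3.37 and KAR2 at its main start at -1.83 in the authors' deposited table, against -3.29 and -1.54 for snf2Q928K. SER3 was at 0.35, not called, in snf2W935R_DTT in the authors' deposited table, and at 3.72 in snf2Q928K_DTT. Sulphur amino acid genes had a median of -0.19 in snf2W935R_DTT and 0.81 in snf2Q928K_DTT. Whether these values differ between the alleles was not tested.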

How the data were processed

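TL-seq libraries of snf2Q928K_DTT and SNF2_DTT (2 each) entered through comparison tables. The submitters' processing notes name cutadapt, HISAT2, DESeq2 and the builds sacCer3 and R64, without versions. Per the file headers, the authors gave each CageR consensus cluster a mean normalized count (a signal), a log2 fold change with its SE, a Wald score and p-values. The deposited score equalled the log2 fold change over its SE. The deposited adjusted p differed from a repeated Benjamini-Hochberg adjustment by at most 0.000137. The table with DTT has 2 empty lines and 1 line with no cluster, which were left out, and 1 gene cell holding a stray entry was taken as SNF11, as elsewhere in the series. Group means were computed from the deposited mean and fold change, assuming 2 libraries per group. That the snf2W935R table uses the same wild-type libraries was inferred from its wild-type means, whose log2 ratio had a robust SD of 0.00119, against 0.406 for the swi3 table. Which wild-type libraries entered the comparison of DTT against untreated was not established. No sample value outside the mapped columns was used.

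Of 3872 locus tags 3773 matched the R64 annotation, which is of S288C and not W303. A cluster's midpoint was placed relative to the coding start, and the most abundant cluster stood for a gene in the lists. The difference between treatments was the difference of log2 fold changes over the root of the summed squared SEs (two-sided, normal distribution). It was run on simulated data whose errors were drawn independently from the same SEs. That run checks the calculation only, and cannot show the effect of shared cultures or of SEs from 2 libraries. Treated and untreated flasks came from 1 culture, so these tables may share culture effects. Motifs were searched in the 300 bases before each cluster. The comparison, the 42 gene lists and the rule for named genes were chosen with earlier results of these data known. The rule took every HNT1 cluster, the 15 highest and 15 lowest called clusters, up to 6 called genes each way per list, genes with opposite calls, the 10 largest gaps within a gene, the 10 largest differences between treatments and the 5 most abundant calls each way. Other members of the iron, stress, phosphate, ER, histone and Swi/Snf lists are named to fill out those lists, and were chosen after their values were seen. Alternatives were other thresholds, filters, scalings and adjustments. Tools were python 3.11.15, pandas 2.3.3, numpy 2.4.6, scipy 1.17.1 and matplotlib 3.10.9.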

Additional observations from a re-analysis of the deposited data

Results flagged for a closer look

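The effect of snf2Q928K differed between DTT and no DTT at 73 clusters, by a test of the difference of the log2 fold changes of the authors' deposited tables. The 58 with all 4 group means at or above 50 include most of those named here, and 4 of the 73 had a group without counts in 1 of the tables, where the fitted difference that was tested depends on that group. Values are the effect with DTT minus the effect without it, on the log2 scale.

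Below 0 were the iron gene FIT2 at -3.47 and the stress genes HSP78 at -1.47, TMA10 at -2.43, STF2 at -1.97 and HSP12. HSP12 had no count in SNF2_untreated and 20.9 normalized counts in snf2Q928K_untreated, so that its difference is given against the floor of 3 normalized counts, at or below -6.37. The other iron genes with a called difference were FTR1 (-2.25) and, above 0, FRE4 (4.18). Also below 0 were SER3 (-2.17), the upstream start of NCE102 (-2.00), BAP2 (-1.64) and OPI3 (-1.55).

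Above 0 were the histones HTB2 (1.67) and HHF1 (1.58), the ribosomal proteins RPS8A (1.43, a cluster shared with YBL071C-B), RPL39 (1.54) and RPS31 (1.88), the hexose transporter HXT3 (1.62) and GLT1, glutamate synthase (2.86). HNT1 at its start-proximal cluster was at 4.55, HXT2 at 1.77, CCP1 at 1.64, VTC3 at 1.24, PTR2 at 2.86, ZRT1 at 5.97 ± 1.29 (SE), ANB1 at 5.77 ± 1.40 (SE) and the intergenic cluster 1756 at 2.93. HO had no count in snf2Q928K_untreated, and against the floor its difference was at least 2.43.

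In 5 clusters the mutant was high without DTT over a wild type at or near 0, and no change was called with DTT. They were HIS4 inside its coding region (-7.08 ± 1.69, SE), TSA1, a peroxiredoxin, inside its coding region (-7.51 ± 1.81, SE), SNZ1, of vitamin B6 synthesis (at or below -3.97 against the floor), and the intergenic clusters 8559 (at or below -3.62 against the floor) and 4392, opposite SOD1 (-4.92). HIS4 averaged 110.0 normalized counts in snf2Q928K_untreated and 0.574 in SNF2_untreated, TSA1 64.7 in snf2Q928K_untreated and 0.581 in SNF2_untreated, and cluster 4392 117 in snf2Q928K_untreated and 5.85 in SNF2_untreated. SNZ1 averaged 62.5 and cluster 8559 56.6 in snf2Q928K_untreated, and SNF2_untreated had no count at either.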

How the results depend on the processing

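No paired analysis was possible because the deposited tables hold no value per library, and leaving out each replicate could not be run for the same reason. At an adjusted p under 0.01 there were 488 changed clusters (243 higher, 245 lower), with Holm's adjustment 224 (100 higher, 124 lower), and at least 2-fold changed were 560. With equal sums of both groups 230 were higher and 611 lower, and 603 of the 754 calls kept their direction and call; centring on the median gave 371 and 379. The difference between treatments was called at 28 clusters under 0.01 (13 above 0 and 15 below). Over the lists, calls of higher members numbered 165, and 101 with equal sums, an alternative chosen after seeing the data. Of the 241 named clusters 215 kept direction and call with equal sums, 24 lost the call, 1 gained it and 1 changed sign, the uncalled VRP1 cluster 1119 bp inside its coding region, to -0.041, and the cause was not tested. With equal sums leaving out FBA1, also added later, 221 kept theirs and 20 lost the call. Of 84 list counts equal sums moved 23 by over 1.5 times, equal sums leaving out FBA1 17 and letting any cluster stand for a gene 14. Low counts limit the weakest clusters: 6.82% were called with a mean under 50.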
